A study of Homo sapiens with 2 samples.

Results

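The imprinted miRNA cluster between DLK1 and DIO3 on chromosome 14 was followed across 58 array probes, those whose name in the scanner output is a listed mature miRNA of the locus, among 2565 miRNA probes in all. The samples were exosomes, small vesicles shed by cells. They were pelleted by ultracentrifugation for 70 min at 4 °C from filtered medium of HuH-7, an established liver cancer line that was grown with 10% fetal bovine serum and then moved to advanced DMEM. There were 2 groups, named HuH-7-P exosome in the labels and, for the other, HuH-7-M exosome, with 1 array each. What P and M stand for is not said in the labels, which name no treatment or genetic change in either culture. By its title the series concerns the spread of liver cancer within the liver, and the comparison asks how the vesicle miRNAs of these cultures differ. There were no replicates and hence no test of the difference, the number of arrays limits the precision, and culture, labelling and array cannot be told apart from the group.

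The locus is imprinted. Its maternal copy gives rise to the noncoding RNAs MEG3, MEG8 and MEG9 and to the miRNAs, while its paternal copy expresses the protein-coding genes DLK1, RTL1 and DIO3. The miRNAs are cut from long transcripts as hairpins, and each hairpin can yield a mature miRNA from its 5p arm, its 3p arm or both. They are best known from brain and placenta, and in liver cancer their raised expression has been described in a subset of tumours. Bases 2 to 8 of a mature miRNA, the seed, guide it to target mRNAs.

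The miRNAs that stood furthest apart between the arrays are shown here with relatives in sequence, so that differences among related miRNAs can be compared. RefSeq (GRCh38.p14) held 57 of the 58 mature sequences, all on the plus strand; hsa-miR-668-3p was not matched. Capitals mark the seed, and sequences run 5′ to 3′.
hsa-miR-300: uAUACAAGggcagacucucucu
hsa-miR-381-3p: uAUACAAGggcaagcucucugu
hsa-miR-1185-1-3p: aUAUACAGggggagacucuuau
hsa-miR-1185-2-3p: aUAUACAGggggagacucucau
hsa-miR-487b-3p: aAUCGUACagggucauccacuu
hsa-miR-487a-3p: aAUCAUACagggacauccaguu
hsa-miR-654-5p: uGGUGGGCcgcagaacaugugc
hsa-miR-380-5p: uGGUUGACcauagaacaugcgc
hsa-miR-1197: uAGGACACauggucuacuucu
The hsa-miR-300 sequence lies at chr14:101041414-101041435, hsa-miR-381-3p at chr14:101045968-101045989, hsa-miR-487b-3p at chr14:101046505-101046526, hsa-miR-654-5p at chr14:101040234-101040255 and hsa-miR-1197 at chr14:101025620-101025640. hsa-miR-300 and hsa-miR-381-3p share the seed AUACAAG, which no other array miRNA with a RefSeq sequence carries. They are identical at 19 of 22 bases, and counted from the 5′ end of hsa-miR-300 they differ by G13A, A14G and C21G. hsa-miR-487b-3p and hsa-miR-487a-3p are also identical at 19 of 22 bases, but G5A falls in the seed, so the pair does not share it; the other differences are U13A and C20G. hsa-miR-1185-1-3p and hsa-miR-1185-2-3p share the seed UAUACAG and differ only by U20C. Moved along by 1 base, hsa-miR-1185-2-3p matches hsa-miR-300 at 17 of 21 bases and hsa-miR-1185-1-3p matches it at 16 of 21.

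The array gave a low signal for most of the cluster. Signal here is the median intensity of a spot minus the mean of the 320 BLANK spots of its array, so a value near 0 is background and a negative value lies below the BLANK mean. Pairs of signals are always given with HuH-7-P first. A probe counted as above background when it passed the BLANK mean by more than 2 SD of these spots, a signal of 2.60 and 2.42. Of the 58 members, 31 passed this limit with HuH-7-P vesicles and 32 with those of HuH-7-M. On both arrays 29 were above it, 50% of the members against 62.1% of all 2565 probes. On neither array were 24 of the 58 members above it, against 818 of all 2565 probes. A stricter limit came from the 85 spots labelled No Probe, at a signal of 27.2 and 31.2. Only 11 members (19%) passed that No Probe limit in both preparations, against 790 of all probes (30.8%).

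**Figure D1:**
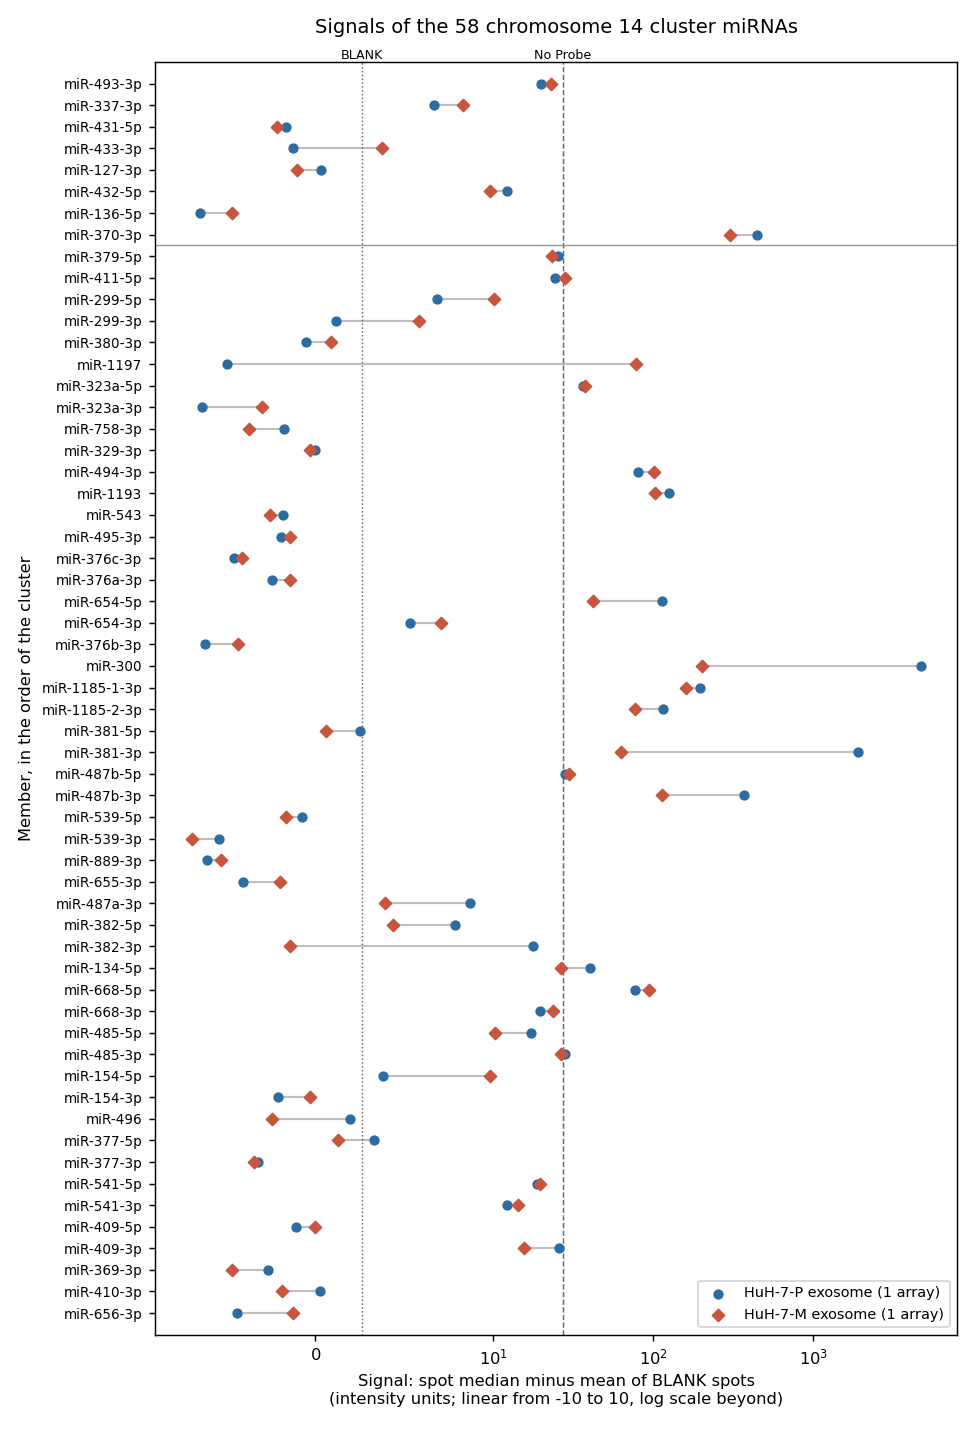
Signal of each of the 58 members on the HuH-7-P array (circles) and the HuH-7-M array (diamonds), in the order of the cluster, on an axis that is linear around 0 and logarithmic beyond; dotted and dashed lines mark the BLANK and No Probe limits of the HuH-7-P array, and the horizontal line separates the hairpins up to miR-370 from those from miR-379 on. Most members sit near 0 on both arrays, while hsa-miR-300 and hsa-miR-381-3p lie far apart, at 4724 and 201 and at 1899.9 and 63.0.

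Several of the best-known miRNAs of the locus were at background in both vesicle preparations. hsa-miR-127-3p, which lies antisense to RTL1, had signals of 0.30 and -1.01. hsa-miR-136-5p, from the same antisense group, was at -6.49 and -4.70. Both lay below the BLANK limit on each array. The miR-376 family, whose members are known for A-to-I editing of their precursors, was at background throughout, with hsa-miR-376a-3p at -2.46 and -1.46, hsa-miR-376b-3p at -6.22 and -4.36 and hsa-miR-376c-3p at -4.59 and -4.13. The 24 members at background on both arrays ranged from -6.49 to 2.54 with HuH-7-P and from -6.97 to 0.90 with the other preparation. Below the BLANK mean on both were 19 members, and the share of all probes there was not counted. Among the 24 at background on both arrays were hsa-miR-329-3p, hsa-miR-495-3p, hsa-miR-543, hsa-miR-410-3p, hsa-miR-369-3p and hsa-miR-656-3p.

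In the first group, from hsa-miR-493-3p to hsa-miR-370-3p, 4 of 8 members were above background on both arrays. The 5 whose hairpins overlap RTL1, on which they can act as antisense to the paternal transcript, gave a single one, hsa-miR-432-5p at 12.3 and 9.81. hsa-miR-431-5p was at -1.63 and -2.13, and hsa-miR-433-3p at -1.27 and 3.77, above background with HuH-7-M only. The listed arms of these hairpins were thus near or at background. Of their opposite arms, which are not members, 3 were above background on both arrays. These were hsa-miR-433-5p at 28.5 and 27.7, hsa-miR-431-3p at 16.8 and 18.5 and hsa-miR-432-3p at 9.20 and 7.69. The opposite arms hsa-miR-127-5p and hsa-miR-136-3p were at background. hsa-miR-493-3p, at the start of the locus, was at 20.02 and 22.9, and hsa-miR-337-3p at 6.67 and 8.28. These lay above background but short of the No Probe limit, which hsa-miR-370-3p alone passed in this group. In the second group 25 of 50 members were above background on both arrays and 10 passed the No Probe limit in both preparations. Near its end hsa-miR-377-3p was at -3.20 and -3.46, hsa-miR-496 at 1.94 and -2.46 and hsa-miR-409-5p at -1.08 and -0.017, all of them at background.

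Detection followed base composition. None of the 15 members with under 40% G and C bases was above the BLANK limit on both arrays, and 5 of 5 members with 60% or more were. Between 40 and under 50% it was 12 of 20 members, and between 50 and under 60% it was 11 of 17. The other probes with a RefSeq sequence showed the same order, with 20 of 384 (5.21%), 219 of 504 (43.5%), 522 of 664 (78.6%) and 613 of 644 (95.2%) from the lowest to the highest group. The median was 45.5% G and C over the 57 members and 52.2% over the 2196 other probes. Low abundance and weak binding of A- and U-rich probes cannot be told apart in these values, so a member at background is one that was not detectable on this array.

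**Figure D2:**
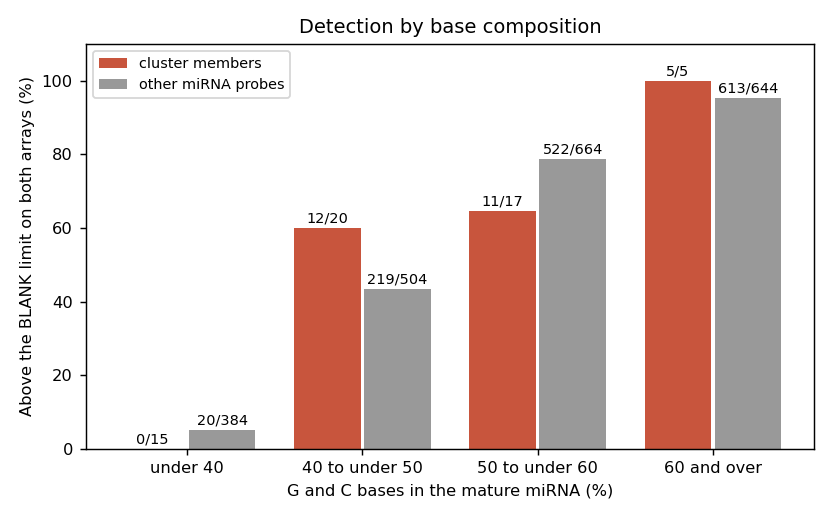
Share of probes above the BLANK limit on both arrays (percent, bars from 0) by the share of G and C bases in the mature miRNA, for cluster members and for the other miRNA probes, with counts above the bars. The share is 0 of 15 members in the lowest group and 5 of 5 in the highest, and the other probes run from 5.21% to 95.2%.

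For differences between the arrays, intensities were corrected with BLANK as negative control, raised by an offset of 50, quantile-normalized and put on the log2 scale; every difference is HuH-7-M less HuH-7-P. Repeated spots of the same control probe on the same array, pooled over 26 such sets, gave a difference between single spots an SD of 0.21. It leaves out any spread between cultures or arrays. Because it is 1 SD, differences between repeated spots also exceed it at times. A value just past it is thus not set apart from spot noise. Of the 29 members above background on both arrays, called measured here, 3 were at least 2-fold lower on HuH-7-M (10.3%), against 1.69% of all 1593 measured miRNAs. None was at least 2-fold higher, against 0.439% of all. The median over the 29 was -0.02 and that over all measured miRNAs was 0.01. Beyond the spot-to-spot SD of 0.21 lay 9 members (31.0%), against 24% of all measured miRNAs.

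**Figure D3:**
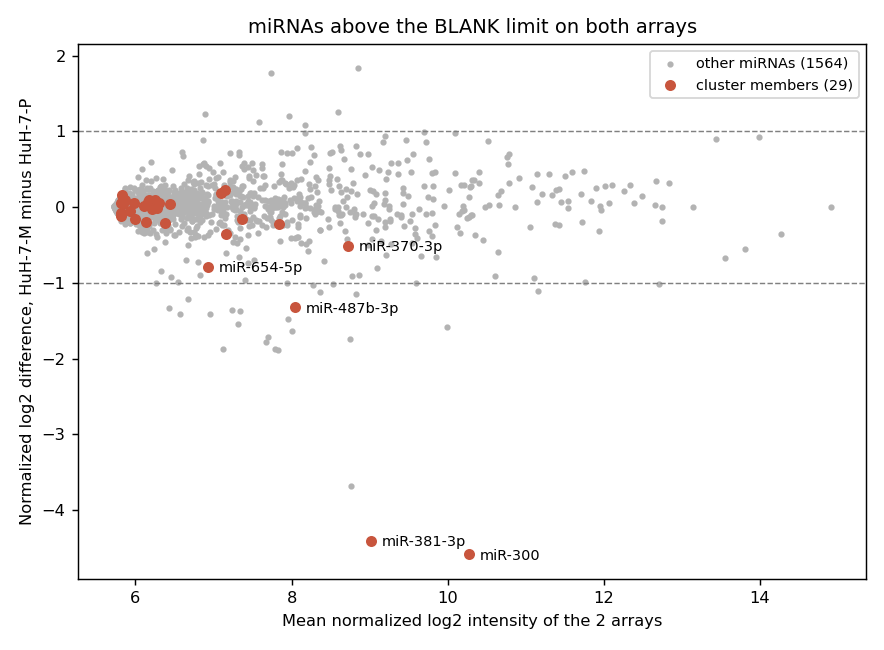
Normalized log2 difference, HuH-7-P subtracted from HuH-7-M, against the mean normalized log2 intensity of the 2 arrays for the 1593 measured miRNAs, with the 29 measured members in colour and dashed lines at 2-fold. hsa-miR-300 and hsa-miR-381-3p have the lowest values of all points, at -4.59 and -4.40, and the other members lie between -1.32 and 0.23.

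hsa-miR-300 and hsa-miR-381-3p, which share a seed, were the members furthest apart. The signal of hsa-miR-300 was 4724 in HuH-7-P vesicles, against 201 in those of HuH-7-M. The signal of hsa-miR-381-3p was 1899.9, against 63.0. Both were bright in the first preparation, and in the second both were still past the No Probe limit. Their normalized differences were -4.59 and -4.40, the lowest and the next lowest of the 1593 measured miRNAs, and the signal ratios without an offset were 23.5-fold and 30.2-fold. Among the 5 spots next to each on the array, the brightest signals were 548 and 419 beside hsa-miR-300 and 25.3 and 25.6 beside hsa-miR-381-3p, so the brightest neighbour on one array and on the other differed far less than the members. Because the sequences differ at 3 of 22 bases, the signals of this pair may not be independent readings; how far each probe reads the other miRNA was not tested.

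Closeness in sequence went with a difference between the arrays to unequal degrees. hsa-miR-1185-1-3p, with its sister the next closest to hsa-miR-300 in sequence among the array miRNAs, had signals of 198 and 159.7 (-0.22). hsa-miR-1185-2-3p had 115 and 77.1 (-0.35). Both were lower on HuH-7-M beyond the spot-to-spot SD, and far from the size seen in hsa-miR-300. hsa-miR-539-3p, which matches hsa-miR-381-3p at 15 of 20 bases with a run of 8, was at background on both arrays (-5.40 and -6.97). Outside the cluster, hsa-miR-5580-3p, another miRNA with a much lower HuH-7-M value (-3.68), shares no run of over 3 bases with hsa-miR-300 or hsa-miR-381-3p.

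hsa-miR-487b-3p was the third member past 2-fold. Its signal was 369 in HuH-7-P vesicles, against 113 in the others, a difference of -1.32. It was lower on HuH-7-M, past 2-fold and well beyond the spot-to-spot SD. Its near-identical relative hsa-miR-487a-3p was dim on both arrays, at 8.68 and 3.91, and its difference of -0.12 lay within that SD, although without an offset it was -1.11 in the authors' deposited table. hsa-miR-154-3p, which has the same seed as hsa-miR-487a-3p, was at background (-2.10 and -0.33).

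hsa-miR-654-5p had signals of 114 and 42.0, a difference of -0.79. With the offset it stayed within 2-fold, and in the authors' deposited table, which carries none, it was past it at -1.40. Its closest relative among all array miRNAs is hsa-miR-380-5p, an arm of another hairpin of the cluster that is identical to it at 17 of 22 bases and lies 15.2 kb away; hsa-miR-380-5p is not among the 58 members. hsa-miR-380-5p had signals of 59.1 and 4.32, with a difference of -0.999 (-3.73 in the authors' deposited table), just short of 2-fold. It was past the No Probe limit with HuH-7-P and barely above background with HuH-7-M. hsa-miR-541-3p, which shares the seed GGUGGGC with hsa-miR-654-5p but matches it at 12 of 21 bases, was at 12.3 and 14.3 (0.06).

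Along the chromosome these members lie together. The order of the locus has a group of 8 members from hsa-miR-493-3p to hsa-miR-370-3p within 42.1 kb, a gap of 110.9 kb, and 50 members from hsa-miR-379-5p to hsa-miR-656-3p within 44.7 kb. Between hsa-miR-654-5p and hsa-miR-487b-3p, a stretch of 6.29 kb chosen after the values were seen, 8 of 11 members were measured. Of the 8, 6 were lower on HuH-7-M beyond the spot-to-spot SD, with hsa-miR-1185-1-3p (-0.22) only just past it. The other 2, hsa-miR-654-3p (0.06) and hsa-miR-487b-5p (0.05), are opposite arms of members that were lower. Of all 1593 measured miRNAs, 24% lay beyond that SD in either direction. The stretch was bounded by lower members, so its contrast with the rest was built in by the choice. Over the rest of the locus 21 of 47 members were measured, 10 were below 0 and 11 above, and 3 lay beyond that SD. These counts leave out miRNAs of the locus that are not members. Of the 18 of those that were measured, 2 lay beyond that SD, both lower, hsa-miR-380-5p (-0.999) and hsa-miR-2392 (-0.39). All 3 members past 2-fold fall in this stretch, which overlaps the noncoding gene MIR381HG from miR-381 on, while the miR-654, miR-300 and miR-1185 hairpins overlap no other RefSeq gene. The hairpins that follow, miR-539, miR-889 and miR-655, gave members at background on both arrays, so they show neither a lower nor an equal level. The stretch also holds hsa-miR-300, hsa-miR-381-3p and both miR-1185 members, which are related in sequence, so for these 4 position and sequence cannot be told apart. hsa-miR-487a-3p, hsa-miR-541-3p and hsa-miR-380-5p, the relatives of hsa-miR-487b-3p and hsa-miR-654-5p, lie outside it.

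**Figure D4:**
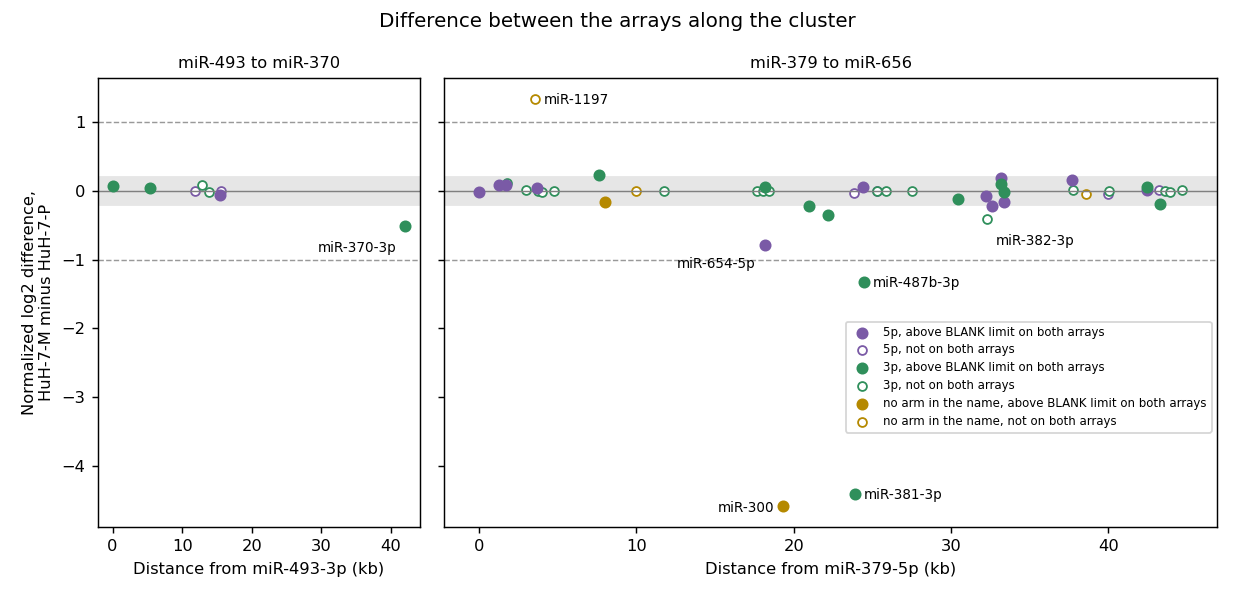
Normalized log2 difference, HuH-7-P subtracted from HuH-7-M, of each member against its distance from the first member of its group in kb, coloured by arm, with filled points for members above the BLANK limit on both arrays and open points for the others; a miRNA with 2 loci is drawn at the first, the grey band is the spot-to-spot SD of 0.21 and dashed lines mark 2-fold. The lowest points, hsa-miR-300 (-4.59), hsa-miR-381-3p (-4.40) and hsa-miR-487b-3p (-1.32), lie within 5.11 kb of each other.

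The arms of a hairpin come from the same precursor, and 13 hairpins had both arms among the members. Both arms were measured in 5 of them, miR-485, miR-487b, miR-541, miR-654 and miR-668. hsa-miR-487b-5p had signals of 28.0 and 30.01 beside a 3p arm that was -1.32. hsa-miR-654-3p had 5.32 and 7.09 beside a 5p arm that was -0.79. In these hairpins 1 arm was lower on HuH-7-M and the other was near equal and dim. hsa-miR-381-5p was at background on both arrays (2.54 and 0.62), so it gives no second reading for hsa-miR-381-3p. The arms of miR-668 were both slightly higher on HuH-7-M, hsa-miR-668-5p at 77.0 and 94.5 (0.19) and hsa-miR-668-3p at 19.6 and 23.8 (0.09), both below 0 under the Spike Control scaling described at the end and each within the spot-to-spot SD, as were both arms of miR-541 and of miR-485. By arm, 13 of 19 members named 5p were measured, with a median of 0.02, and 14 of 34 named 3p, with a median of -0.07. The share by arm over all probes was not counted. Some 3p members at background hold few G and C bases, such as hsa-miR-369-3p (23.8%) and hsa-miR-655-3p (27.3%). No arm trait of the cluster is therefore read from these counts. Of the 3 members past 2-fold, hsa-miR-381-3p and hsa-miR-487b-3p are 3p arms and hsa-miR-300 carries no arm in its name.

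The other members past the No Probe limit in both preparations differed less. hsa-miR-370-3p, the last hairpin of the first group and the only one within MEG8, had signals of 446 and 303 (-0.51). hsa-miR-1193 had 126 and 103 (-0.16). hsa-miR-494-3p had 79.9 and 100.6 (0.23, and -0.37 when the arrays were scaled to the Spike Control spots). The first and the last of these lay beyond the spot-to-spot SD, in opposite directions, and hsa-miR-494-3p had the highest difference of the 29 measured members in this normalization. hsa-miR-323a-5p was alike on the arrays, at 36.7 and 37.7 (0.04), while its 3p arm, the arm more often described in brain, was at background (-6.40 and -3.01). Of the 11 members past this limit 3 were at least 2-fold lower, where 2.78% of all 790 such miRNAs were, and none was at least 2-fold higher, where 0.886% were. Below 0 lay 8 of the 11 (72.7%), against 40.1% of the 790, and above 0 lay 3, against 58.1%. Their median was -0.35 against 0.04. In the chromosome 19 cluster, described below, 3 of the 4 miRNAs past this limit also lay below 0.

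**Figure D5:**
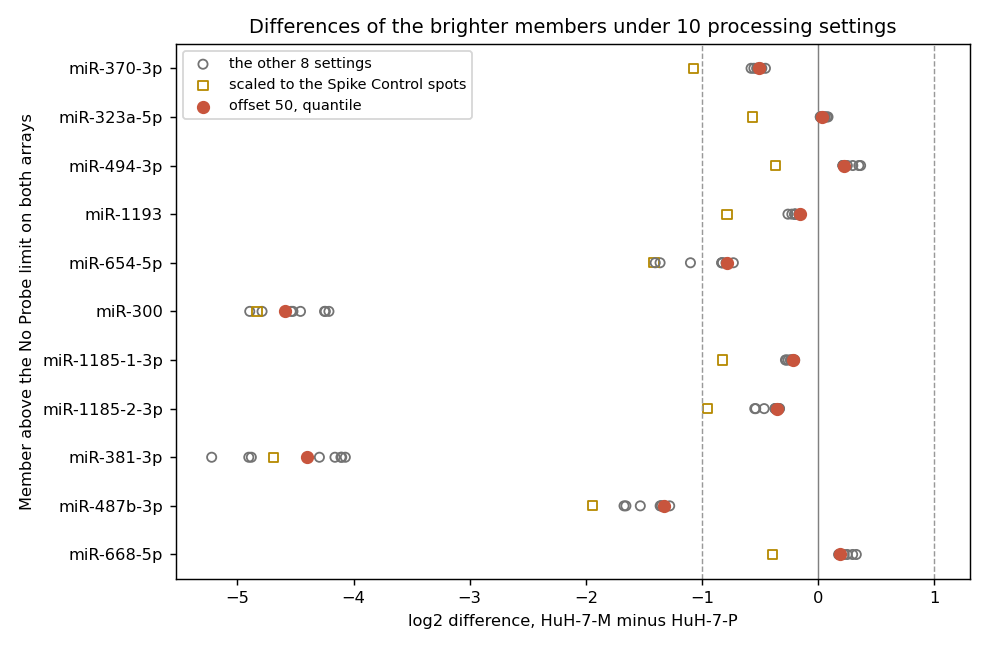
log2 difference, HuH-7-P subtracted from HuH-7-M, of the 11 members that passed the No Probe limit in both preparations, with the offset of 50 and quantile normalization (filled), scaled to the Spike Control spots (squares) and under the other 8 background and scaling settings (open circles); dashed lines mark 2-fold. hsa-miR-300 runs from -4.89 to -4.21, hsa-miR-381-3p from -5.22 to -4.07 and hsa-miR-487b-3p from -1.94 to -1.28, and hsa-miR-323a-5p, hsa-miR-494-3p and hsa-miR-668-5p lie above 0 except under the Spike Control scaling.

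The other 18 measured members did not pass the No Probe limit in both preparations. Their signals ran from 3.78 to 40.4 with HuH-7-P and from 3.91 to 30.01 with HuH-7-M. Their differences ran from -0.21 to 0.16 with a median of 0.03, and 17 of 18 lay within the spot-to-spot SD. hsa-miR-134-5p, known in neurons for limiting dendritic spine size, was the exception at 40.4 and 26.6 (-0.21). hsa-miR-379-5p, the first hairpin of the second group, was at 25.6 and 23.4 (-0.02), and its neighbour hsa-miR-411-5p at 24.3 and 28.0 (0.09). Toward the end of the locus hsa-miR-409-3p was at 25.8 and 15.7 (-0.19) and hsa-miR-485-5p at 17.1 and 10.2 (-0.15), both lower within that SD. hsa-miR-485-3p, which shares the seed UCAUACA with hsa-miR-539-3p, was at 28.3 and 26.4 (-0.01). The offset pulls such dim values toward 0. In the authors' deposited table, without it, 5 of the 29 members were past 2-fold lower (17.2%, against 4.16% of all) and 1 past 2-fold higher (3.45%, against 3.91%). The 2 lower members that the offset had kept within 2-fold were hsa-miR-654-5p and hsa-miR-487a-3p, and the higher one was hsa-miR-154-5p (1.41), with signals of 3.78 and 9.85 close to background.

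Above background on 1 array only were 5 of the 58 members, 2 with HuH-7-P and 3 with HuH-7-M. Over all 2565 probes it was 76 and 78. For such members the difference is a lower bound. It sets the brighter value against the dimmest probe above background on the other array. hsa-miR-1197 had signals of -4.99 and 78.6, at least 2.42-fold higher on HuH-7-M, a direction it kept in 9 of 9 other settings. The bound fell short of 2-fold when the arrays were scaled to the Spike Control spots, at 1.63-fold, and reached 30.6-fold without an offset. It ran against the direction of most of the brighter members and passed the No Probe limit there. Its closest relatives in sequence, hsa-miR-495-3p and hsa-miR-380-3p, each identical at 15 of 21 bases, were at background on both arrays. From the next hairpin hsa-miR-323a-3p was at background too, while hsa-miR-323a-5p was past the No Probe limit on both, at 36.7 and 37.7. Among the 8 spots around it the brightest signals were 156 and 163, alike between the arrays. hsa-miR-382-3p had 17.7 and -1.45, at least 1.29-fold lower on HuH-7-M, beside a 5p arm at 7.84 and 4.37 (-0.08). The remaining 3, hsa-miR-433-3p (-1.27 and 3.77), hsa-miR-299-3p (1.14 and 5.82) and hsa-miR-377-5p (3.27 and 1.27), gave bounds of 1.02-fold, 1.06-fold and 1.01-fold, and their direction held in 8 of 9 other settings each.

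A further 35 miRNAs of the locus that are not members, most of them opposite arms, were described in the same way. Of these, 18 were measured and 2 passed the No Probe limit in both preparations. None was at least 2-fold apart, the median was -0.01, and 9 were above 0 and 9 below. Past 2-fold lower in the authors' deposited table were 2 of the 18 (11.1%), hsa-miR-380-5p (-3.73) and hsa-miR-411-3p (-1.15). The 2 past the No Probe limit were hsa-miR-2392, with signals of 263 and 185 (-0.39), and hsa-miR-665, with 56.4 and 52.0 (-0.04). hsa-miR-1185-5p, the 5p arm of both miR-1185 hairpins, was at background (-6.69 and -4.43). hsa-miR-380-5p, described above, was the lowest of this list.

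The other large imprinted miRNA cluster, on chromosome 19 and active in placenta, served for comparison. Of its 39 listed miRNAs 21 were measured and 4 passed the No Probe limit in both preparations. hsa-miR-517a-3p and hsa-miR-517b-3p share 1 probe, measured and below 0, which is counted for each of them. None was at least 2-fold apart, and 1 of the 21 (4.76%) was past 2-fold lower in the authors' deposited table. The differences ran from -0.30 to 0.05 with a median of -0.02. Below 0 lay 14 of the 21, against 16 of the 29 chromosome 14 members and 717 of all 1593 measured miRNAs. Of the 4 past the No Probe limit 3 lay below 0, with a median of -0.13, so values below 0 were not particular to chromosome 14. The median was thus close to that of the chromosome 14 members, and no value of that list came near those of hsa-miR-300 or hsa-miR-381-3p.

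Most miRNAs typical of cell types did not pass the No Probe limit in both preparations. All 5 hepatocyte miRNAs were measured and 2 passed that limit, with summed signals of 119 and 149. The 4 blood miRNAs, none past it, summed to 57.6 and 51.4, and the 5 of endothelium and stroma to 57.8 and 77.7, with 1 past it and hsa-miR-126-3p and hsa-miR-145-5p at background. The 4 of muscle and brain summed to 170.1 and 71.5, with 1 past it and hsa-miR-9-5p at background. Of these 4, 3 were measured, with differences from -1.21 (hsa-miR-206, past 2-fold lower on HuH-7-M) to 0.06. The brightest signal of the list on each array, 108.7 with HuH-7-P and 47.4 with HuH-7-M, made up much of the sum there. These need not be the same miRNA. The part of this list in the result was not tested. The Spike Control probes were brighter on HuH-7-M by 0.51 and 0.66 on the log2 scale, and scaling to them put the median of all measured miRNAs at -0.58 and every measured member named by rule below 0, hsa-miR-494-3p and the arms of miR-668 among them.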

How the data were processed

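Cy5-labelled vesicle RNA was read on a 3D-Gene miRNA array, per the labels' protocols, with 1 array per group. The deposited scanner output holds the median intensity of each of 3200 spots, not background-subtracted, per the file headers. The authors also deposited a table of linear intensity values, which equal the spot median less the trimmed BLANK mean, scaled to a median of 25 (relative tolerance 1e-06); the software is not given here. Its row names disagree with the scanner output for 5 of 34 members with a value, so scanner names were used.

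The BLANK limit leaves out the top and bottom 5% of the 320 BLANK spots. Background correction was by nec, with offset 50, in R 4.3.3 with limma 3.58.1, then quantile normalization over the 2565 miRNA probes; the steps were tested on simulated data. The offset understates differences of dim probes. The threshold was 2-fold. No p-value was computed. Sequences and positions are from RefSeq (GRCh38.p14). Members named in full were those past 2-fold, above the No Probe limit on either array, above background on 1 array, sharing a seed with these, or with both arms listed; others were named after their values were seen. Members and lists were chosen with earlier results of these data known.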

Additional observations from a re-analysis of the deposited data

How the results depend on the processing

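hsa-miR-300, hsa-miR-381-3p and hsa-miR-487b-3p stayed at least 2-fold lower on HuH-7-M under all 10 planned settings of background, scaling and source. Over the 23 named members measured on both arrays, 12 kept their sign under all 10. The others changed sign when the arrays were scaled to the Spike Control probes (median -0.58 over the measured miRNAs and -0.62 over the members) or, for hsa-miR-485-3p (-0.01), moved between -0.62 under that scaling and 0.0031 with 75th percentile scaling. Under the Spike Control scaling 5 members were at least 2-fold lower. The share of all measured miRNAs past 2-fold under it was not counted, so the 5 are not read as a trait of the cluster. Without an offset, 1 member was at least 2-fold higher and 5 lower, with the BLANK mean subtracted, as a median-scaled ratio and in the authors' table alike. The authors' table with its names as given, added after seeing the data, also gave 1 and 5. With the second intensity column, also added, 3 were lower and none higher. The No Probe limit left 11 members with a median of -0.35, and without a filter on dim probes 1 member, hsa-miR-1197, was at least 2-fold higher. The bound for hsa-miR-1197 ran from 1.63-fold to 30.6-fold over 9 settings and that for hsa-miR-382-3p from 1.25-fold to 7.11-fold. No paired analysis was possible because each group holds 1 array, and for the same reason no array could be left out.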

Other observations

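The scanner output holds a second intensity column, headed as a background median, that was not used above. On the log scale it rose with the spot median across probes of each array (Pearson's r = 0.992 on each, a description across probes, which are no replicates), and it exceeded the spot median at 21.8% of miRNA probes on one array and 16.3% on the other, unlike a local background. For hsa-miR-300 it read 5305 (HuH-7-P) and 188 (the other array), for hsa-miR-381-3p 2026 and 115, and for hsa-miR-487b-3p 411 and 166. For hsa-miR-1197 it read 58.3 and 120. These are readings of the same spots and the same arrays, and no replicate. In this column hsa-miR-370-3p differed by -0.92 after the same normalization, against -0.51 from the spot median.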
